A study of Mus musculus with 6 samples.

Results

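Levels and genotype differences were described for 35 imprinted genes of the mouse brainstem, drawn from 17 imprinted clusters, among 34632 loci of the transcript assembly, of which 23985 carry a gene name. Members were found by gene name. Where a name stood at several loci, the locus with the highest mean fragment count was taken. For *Ube3a* this was a locus antisense to the gene, which stands for it in the counts of members below. RNA-Seq compared 3 pools of *Hoxa5*flox/flox;CMV-CreERT2+/- brainstems, called *Hoxa5* cKO, with 3 pools of *Hoxa5*flox/flox;CMV-CreERT2-/- brainstems, called *Hoxa5* control. Each pool held RNA of 3 brainstems taken at postnatal day (P)21, and the controls were littermates. Both genotypes carried the floxed *Hoxa5* allele on both chromosomes and both received tamoxifen from P1 to P4, so they differed in the Cre transgene, which a CMV promoter drives widely and tamoxifen activates. The mice had a mixed, mainly 129/Sv, background. Each value therefore averages 3 brains and all cell types of the brainstem.

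The locus of the targeted gene did not separate the labels. The locus that holds *Hoxa5* together with *Hoxa6* and *2700086A05Rik* had 279, 57 and 63 fragments in the libraries labelled cKO replicates 1, 2 and 3, against 202, 337 and 77 in the libraries labelled control replicates 1, 2 and 3. Replicate 1 of the libraries labelled cKO was high and replicate 3 of those labelled control was low, so the groups overlapped. For this reason the libraries are called by their labels below, and the counts of changed genes are also given without these libraries. With all libraries the log2 fold change of this locus was -0.62 (SE 0.48, adjusted p = 0.893 in edgeR). Over the alternative fits described below it ranged between -2.2 and -0.047, with an adjusted p down to 5.9e-06. The counts cover all 3 names, so *Hoxa5* alone was not measured. By RT-qPCR of dissected brainstem subregions, the paper reports a severe reduction of *Hoxa5* transcripts in cKO. Replicate 1 of the libraries labelled cKO also differed in its summed level of 4 Y-linked genes, which was 0.25 CPM, counts of fragments scaled to a library of 1000000, against 84.4 to 131 CPM in the other 5 libraries. Library totals ranged between 12034613 and 13202707 fragments.

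An imprinted gene is expressed mainly from the chromosome inherited from 1 parent, and the choice goes back to a methylation mark that the egg or the sperm sets on a stretch of DNA, the imprinting control region. Imprinted genes lie in clusters in which protein-coding genes and long noncoding RNAs share such a region, and a noncoding RNA made on 1 parental chromosome often accompanies silence of its neighbours on that chromosome. Many are strongly expressed in brain and act in growth, feeding, sleep and maternal behaviour. In neurons the parental choice can differ from that in other tissues: *Ube3a*, an E3 ubiquitin ligase, is silenced on the paternal copy there by a long antisense transcript that starts near *Snrpn*. The parental origins given below are this background. The files hold no allele-specific values, so a change confined to 1 parental copy was not measured here.

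Some of the members are best recognised by their sequence. *Peg3*, a zinc finger gene, and *Usp29*, a gene of the ubiquitin-specific protease family, are both paternally expressed and point away from each other. Their assembled loci start 50 bases apart, at positions 6730512 and 6730562 of chromosome 7. *Peg10* and *Sgce* form a second such pair, with starts 102 bases apart on chromosome 6. Promoter windows of 300 bases (GRCm38.p6, credited to RefSeq, 250 bases before and 50 after an annotated start) are shown for the shared start of *Peg3* and *Usp29*, for *Airn*, whose fold change was the lowest of the members, and for *Nnat*, a gene that lies inside an intron of *Blcap*. Capitals mark TGCCGC on either strand, the letters bound by the imprint-protecting protein ZFP57 when methylated.
*Usp29* and *Peg3*, chr7:6730333-6730632, plus strand: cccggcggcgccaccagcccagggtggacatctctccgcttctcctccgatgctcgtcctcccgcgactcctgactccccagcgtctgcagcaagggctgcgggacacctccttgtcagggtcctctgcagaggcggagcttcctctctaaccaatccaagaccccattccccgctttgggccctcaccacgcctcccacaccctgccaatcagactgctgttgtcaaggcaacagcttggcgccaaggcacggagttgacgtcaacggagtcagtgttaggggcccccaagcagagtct
*Airn*, chr17:12741061-12741360, plus strand: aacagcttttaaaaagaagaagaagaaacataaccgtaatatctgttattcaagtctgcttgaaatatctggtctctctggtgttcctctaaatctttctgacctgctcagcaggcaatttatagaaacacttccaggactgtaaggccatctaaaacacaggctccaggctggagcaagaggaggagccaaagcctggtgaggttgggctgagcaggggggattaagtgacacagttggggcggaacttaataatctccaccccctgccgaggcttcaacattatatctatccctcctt
*Nnat*, chr2:157559828-157560127, plus strand: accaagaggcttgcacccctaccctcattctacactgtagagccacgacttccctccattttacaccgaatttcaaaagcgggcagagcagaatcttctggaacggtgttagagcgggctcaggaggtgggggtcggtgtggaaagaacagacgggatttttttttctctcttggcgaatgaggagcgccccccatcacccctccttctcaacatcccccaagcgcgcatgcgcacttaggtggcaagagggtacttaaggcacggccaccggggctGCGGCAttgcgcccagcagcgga

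The letters TGCCGC stood once in the *Nnat* window and were not in the windows of *Usp29* and *Airn*. RefSeq windows were found for 29 of the 35 genes, as 44 windows, of which 11 (25%) held TGCCGC, against 11.6% of all 32851 windows. They belonged to 10 genes, among them *Meg3*, *Grb10*, *Mest*, *Snrpn* and *Plagl1*. A search for GCCATNTT on either strand, a form of the letters recognised by YY1, found it in 2 of the 44 windows, those of *Ube3a* and *Mkrn3*, against 6.05% of all windows. The 2 motifs can share letters where they adjoin, and these matches describe the sequence only.

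The noncoding RNAs of the *Dlk1-Dio3* cluster are also hosts of small RNAs. Mature microRNAs annotated by RefSeq within the assembled loci numbered 17 in *Meg3*, 12 in *Rian* and 71 in *Mirg*. The assembled loci are wider than the genes annotated by GENCODE. The *Meg3* locus merges 10 gene names and runs past the annotated end of *Meg3* at 109571726. The *Mirg* locus merges 36 names and starts at 109707918, while annotated *Mirg* starts at 109729764. The 71 of the *Mirg* locus had 65 different seeds, the bases 2 to 8 that pair with a target. Of these seeds, 6 were shared by 2 microRNAs each. To show this repetition within the assembled locus, 4 of the shared pairs are given with the seed in capitals. Of those listed, only miR-410-5p lies within annotated *Mirg*, and the others lie before its start.
miR-379-3p: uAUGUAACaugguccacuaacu
miR-411-3p: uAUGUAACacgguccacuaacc
miR-379-5p: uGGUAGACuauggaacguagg
miR-1193-5p: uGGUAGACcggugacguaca
miR-494-5p: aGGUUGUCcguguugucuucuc
miR-410-5p: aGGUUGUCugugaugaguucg
miR-376c-5p: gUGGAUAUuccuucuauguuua
miR-376b-5p: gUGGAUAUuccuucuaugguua
The microRNAs themselves were not measured by these libraries, so the values below are those of the assembled loci.

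The level of the members spanned the whole range of the brainstem transcriptome. Levels between genes are given as FPKM, fragments scaled by transcript length and by library depth, which accounts for length, as a mean of the 6 libraries. Of the 35 genes, 8 were above 100 FPKM, 13 lay between 10 and 100 FPKM, 10 between 1 and 10 FPKM and 4 were under 1 FPKM. The median member stood at percentile 80.4 of the 23985 named loci by mean FPKM. *Gnas*, which codes for the alpha subunit of the stimulatory G protein, was highest at 776 FPKM (percentile 99.9). It was followed by *Meg3* at 401, *Snrpn* at 308, *Rian* at 214, *Ndn* at 179.7, *Impact* at 145.5, *Peg3* at 138.5 and *Nnat* at 120.8 FPKM. The ranges of the last 3 overlapped, *Impact* with 136.4 to 154.6 FPKM, *Peg3* with 132.8 to 143.7 FPKM and *Nnat* with 108.3 to 139.2 FPKM, although *Impact* was above *Peg3* in each of the 6 libraries. The values of *Meg3*, *Snrpn* and *Rian* are those of assembled loci that are wider than the annotated genes. The lowest were *Asb4* at 0.928, *H19* at 0.747, *Dio3* at 0.0498 and *Phlda2* at 0 FPKM.

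**Figure D1:**
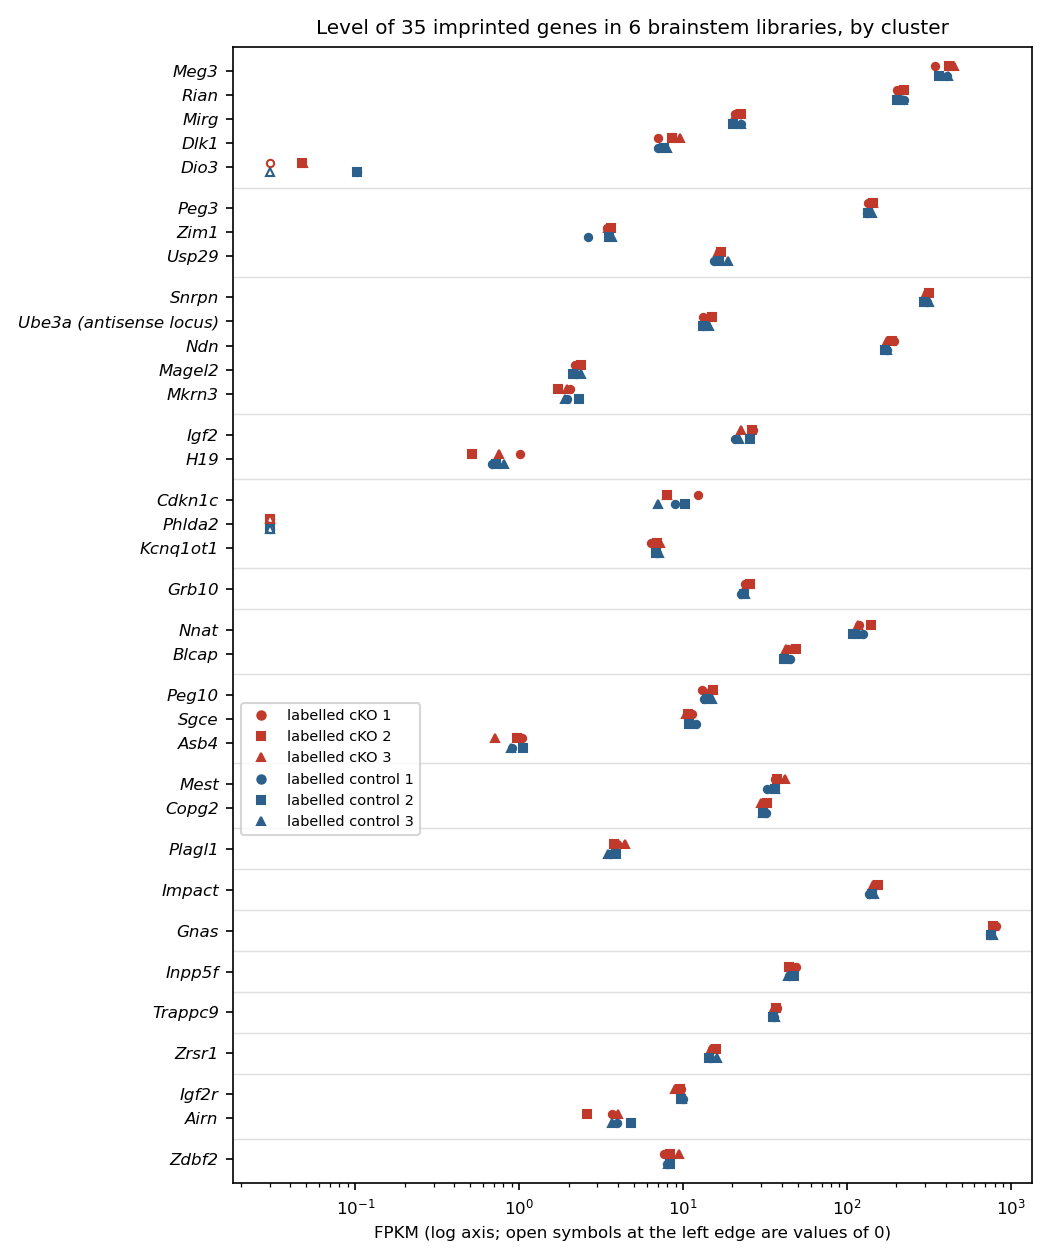
FPKM of the 35 imprinted genes on a log axis, 1 row per gene, grouped by cluster and separated by grey lines. Red symbols above are the 3 libraries labelled cKO and blue symbols below the 3 libraries labelled control, so the overlap of the genotypes can be compared with the span between genes, from *Gnas* at 776 FPKM to *Phlda2* at 0 in all 6 libraries.

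The question asked here was whether any of these genes differed between the libraries labelled cKO and those labelled control. No member passed the threshold. Of the 35 genes, 33 had enough fragments to be tested, and 0 of them had an adjusted p under 0.05 in edgeR's quasi-likelihood test with Benjamini-Hochberg adjustment over all 21854 tested loci, of which 0.531% (116) passed. Of these, 110 (0.503%) were lower and 6 (0.0275%) were higher in libraries labelled cKO. The smallest adjusted p of a member was 0.587. At an unadjusted p under 0.05, 1 member was lower (*Airn*), against 4.03% of all loci, and 2 were higher (*Ndn* and *Zim1*), against 2.91% of all loci. DESeq2 gave 0 members with an adjusted p under 0.05, against 0.592% of the loci to which it gave one, and 0 at an unadjusted p under 0.05, against 1.84% of loci lower and 0.779% higher.

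The intervals were narrow for most members. The 95% interval of the fold change lay within 1.5-fold in either direction for 31 of the 33 tested genes. The 2 genes whose interval reached beyond 1.5-fold were *Airn* and *H19*. Over all 21854 loci 66.3% had an interval within 1.5-fold. The median log2 fold change of the members was 0.044, against 0.0034 over all loci, and 25 of 33 (75.8%) had a value above 0, against 51.4% of all loci. The median of the members was 0.073 without the library labelled cKO replicate 1, 0.071 without control replicate 3, 0.094 without both, and 0.029 without cKO replicate 2, where 20 of 33 were above 0.

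**Figure D2:**
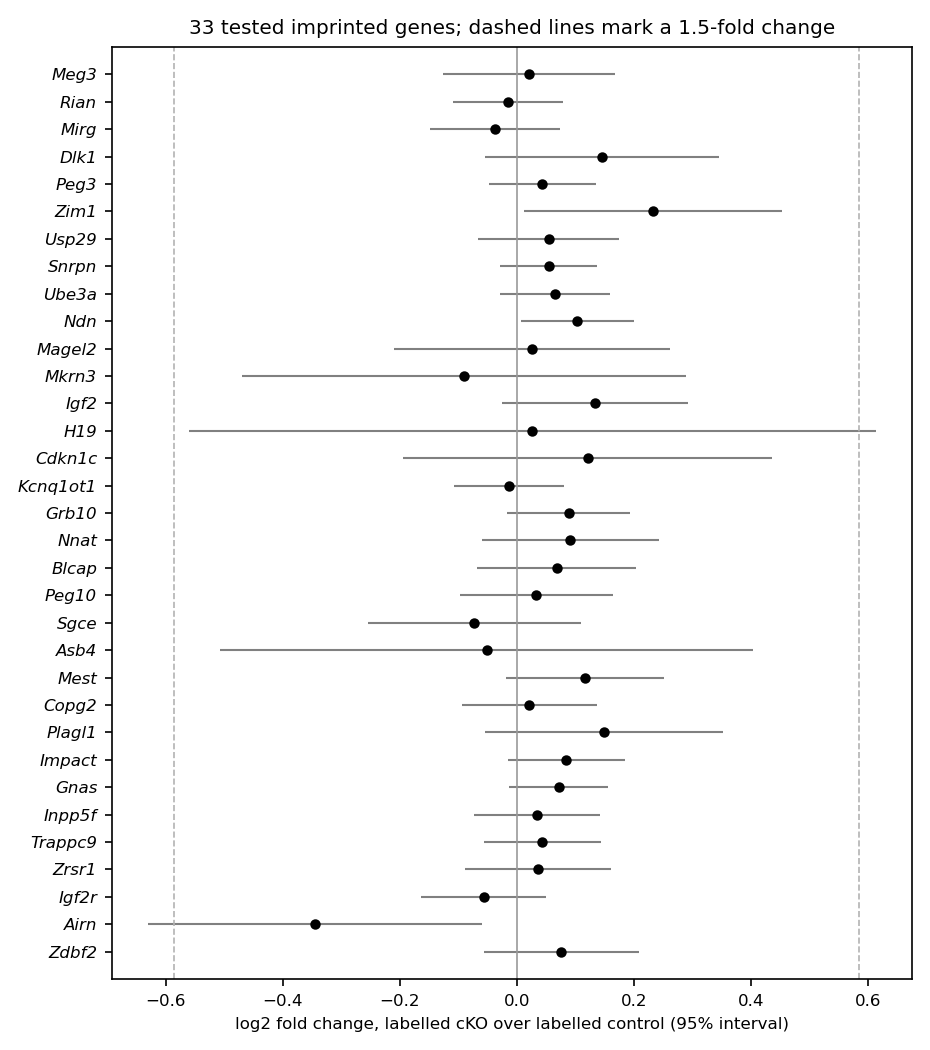
Log2 fold change of libraries labelled cKO over libraries labelled control for the 33 tested genes, with the 95% interval of edgeR as a line, in the order of the clusters. Dashed lines mark a 1.5-fold change, and the lines of *H19* and *Airn* are the 2 that cross one. The row named *Ube3a* shows the locus antisense to that gene.

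In 5 members all 3 libraries labelled cKO were above all 3 labelled control (15.2%, against 5.61% of all loci): *Snrpn*, *Ndn*, *Grb10*, *Gnas* and *Trappc9*. In 1 member, *Igf2r*, all were below (3.03%, against 6.54% of all loci). The log2 fold changes of these 6 genes were small, between -0.056 for *Igf2r* and 0.10 for *Ndn*. By parental origin, the 19 tested genes known as paternally expressed had a median log2 fold change of 0.054 and the 13 known as maternally expressed, in at least some tissues, one of 0.027. *Inpp5f* is among the paternal ones for a brain variant only. *Grb10* and *Igf2r* are among the maternal ones although their parental choice differs in neurons, so the groups are not parental classes of the brainstem. The locus antisense to *Ube3a* is in neither group.

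Without the libraries labelled cKO replicate 1 and control replicate 3, 0 members passed as well, against 0.726% of all loci, and the smallest adjusted p was 0.128 (*Zim1*). In that comparison of 2 libraries with 2, 11 members were higher at an unadjusted p under 0.05, against 4.94% of all loci, and 1, *Airn*, was lower, against 5.15%. The 11 were *Meg3* and *Dlk1* of the *Dlk1-Dio3* cluster, *Peg3*, *Zim1* and *Usp29* of the *Peg3* cluster, the antisense locus at *Ube3a*, *Grb10*, *Peg10*, *Mest*, *Impact* and *Gnas*. The log2 fold changes of these 11 ranged between 0.096 for *Gnas* and 0.39 for *Zim1*.

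Markers of some cell types also differed between the libraries. Of the cell type lists, only those of cerebellar granule neurons and Purkinje cells had sums that did not overlap between the labels. In the endothelial, astrocyte, oligodendrocyte, microglia and forebrain lists 0 genes were called in edgeR. The median log2 fold changes of these lists lay between -0.031 and 0.026. The summed level of 10 cerebellar granule neuron markers was 229 to 249 CPM in the libraries labelled cKO, against 420 to 730 CPM in those labelled control, and 6 of the 10 were called lower. The sum of 10 Purkinje cell markers was 541 to 603 CPM in libraries labelled cKO and 825 to 1138 CPM in libraries labelled control, with 7 of 10 called lower. The sum of 12 choroid plexus markers was 567 to 728 CPM in libraries labelled cKO and 456 to 615 CPM in libraries labelled control, with 0 of 12 called in edgeR and 1 (*Ttr*) higher at an unadjusted p under 0.05. Most of this sum was *Ttr*, at 472 to 611 CPM in libraries labelled cKO and 368 to 508 CPM in libraries labelled control. Of the 12, 10 had a log2 fold change above 0 and 2 below, with a median of 0.17. The 13 markers of meningeal fibroblasts summed to 256 to 310 CPM in libraries labelled cKO and 252 to 435 CPM in libraries labelled control, and 7 of the 13 had a log2 fold change below 0, with a median of -0.06. Of these 13, *Mgp* was called higher, with a log2 fold change of 0.63, and *Col1a1* (-0.79) and *Col1a2* (-0.41) were lower at an unadjusted p under 0.05, both highest in control replicate 2. The 14 markers of brainstem neurons summed to 1032 to 1292 CPM in libraries labelled cKO and 1045 to 1198 CPM in libraries labelled control. Of the 13 tested, 0 were called in edgeR, 12 had a log2 fold change above 0, with a median of 0.13, and 2 (*Dbh* at 0.46 and *Isl1* at 0.83) were higher at an unadjusted p under 0.05. In every library 8 of 11 hypothalamic markers stayed under 1 CPM, among them *Avp*, *Oxt* and *Hcrt*. The part of these cells in the members' values was not tested, and in pooled tissue fewer cells of a type and less RNA per cell cannot be told apart.

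The *Dlk1-Dio3* cluster holds 3 maternally expressed noncoding RNAs, *Meg3*, *Rian* (host of small nucleolar RNAs) and *Mirg* (host of microRNAs), and the paternally expressed coding genes *Dlk1*, a transmembrane protein related to Notch ligands, and *Dio3*, a deiodinase that inactivates thyroid hormone. *Meg3* lay at chr12:109540966-109590241 on the plus strand (mm10) and had 346.6, 421.8 and 449.4 FPKM in the libraries labelled cKO, against 407.3, 366.6 and 415.4 FPKM in those labelled control. Replicate 1 of the libraries labelled cKO was the lowest of all 6 and replicate 3 the highest, so the genotypes overlapped (log2 fold change 0.021, SE 0.069).

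In CPM the other RNAs of the cluster were lowest in the same library. *Rian* had 1240, 1341 and 1321 CPM in libraries labelled cKO and 1365, 1261 and 1318 CPM in libraries labelled control (log2 fold change -0.016, SE 0.045). *Mirg* had 356.2, 408.4 and 386.3 CPM in libraries labelled cKO and 409.4, 373.6 and 397.6 CPM in libraries labelled control (log2 fold change -0.037, SE 0.052). *Dlk1* had 28.3, 35.1 and 38.2 CPM in libraries labelled cKO and 28.5, 31.0 and 32.4 CPM in libraries labelled control (log2 fold change 0.15, SE 0.095, adjusted p = 0.859 in edgeR). In CPM all 4 genes thus had their lowest value in the library labelled cKO replicate 1. In FPKM this did not hold for *Mirg*, lowest in control replicate 2, and *Dlk1*, lowest in control replicate 1. The library labelled cKO replicate 1 had both a high *Hoxa5* locus and the low Y-linked sum. Its *Hoxa5* locus, at 23.3 CPM, was below that of control replicate 2, at 27.4 CPM. Of all tested members, 8 were lowest in cKO replicate 1 and 9 in control replicate 1.

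Leaving out the library labelled cKO replicate 1 moved *Meg3* to a log2 fold change of 0.12 and *Dlk1* to 0.26. Neither of them passed (adjusted p in edgeR of 0.291 for *Meg3* and 0.232 for *Dlk1*). The ratio of *Rian* to *Meg3* in FPKM was 0.584, 0.531 and 0.468 in libraries labelled cKO and 0.545, 0.553 and 0.533 in libraries labelled control. Over the libraries labelled cKO this ratio fell outside the control range on both sides. *Mirg* relative to *Meg3* was 0.059, 0.054 and 0.046 in libraries labelled cKO and 0.055, 0.055 and 0.054 in libraries labelled control, with the same pattern. *Dio3* had 0, 1 and 1 fragments in libraries labelled cKO and 2, 2 and 0 in libraries labelled control, too few to test.

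**Figure D3:**
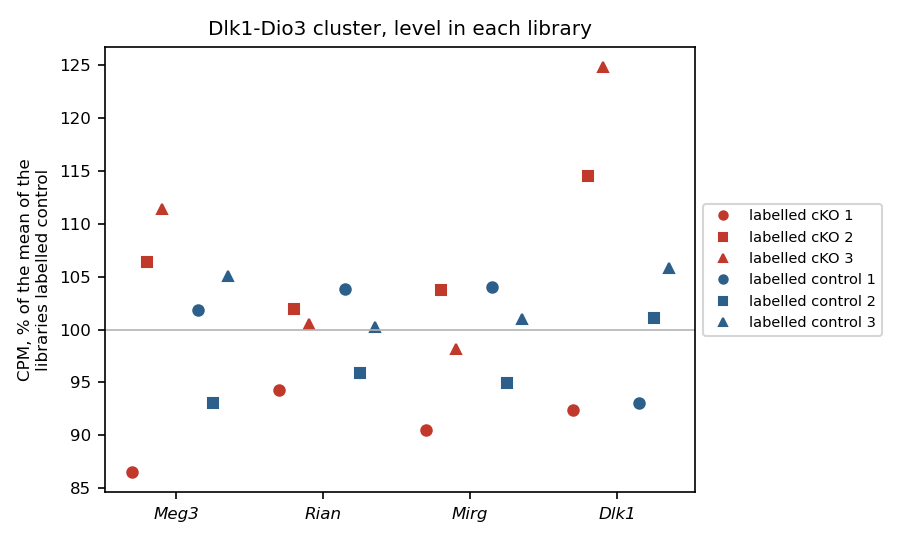
CPM of the 4 tested genes of the *Dlk1-Dio3* cluster in each library, as a percentage of the mean of the 3 libraries labelled control. Each gene shows red symbols (labelled cKO) left of blue symbols (labelled control), and the red circle, replicate 1, is the lowest of the 6 symbols for every gene.

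The *Peg3* cluster on chromosome 7 holds *Zim1*, whose fold change was the highest of the members with all 6 libraries. *Zim1*, a maternally expressed zinc finger gene, had 24.9, 27.3 and 24.6 CPM in libraries labelled cKO and 18.1, 21.6 and 25.5 CPM in libraries labelled control. Its controls spread widely, and replicate 3 of them lay above 2 of the libraries labelled cKO, so the groups overlapped. The log2 fold change was 0.23 (SE 0.104), with an unadjusted p of 0.0391 and an adjusted p of 0.677 in edgeR. It was 0.12 without control replicate 1 and 0.37 without control replicate 3. *Peg3* had 1216, 1295 and 1275 CPM in libraries labelled cKO and 1182, 1215 and 1275 CPM in libraries labelled control, and *Usp29* 106.6, 117.6 and 108.5 CPM in libraries labelled cKO and 100.8, 105.8 and 113.6 CPM in libraries labelled control. These 2 genes, which share the promoter shown above, had log2 fold changes of 0.044 (SE 0.043) and 0.055 (SE 0.057). In FPKM, *Usp29* was 0.118 ± 0.0051 of *Peg3* in libraries labelled cKO and 0.124 ± 0.0077 in libraries labelled control (SD, n = 3 each).

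The *Snrpn-Ube3a* cluster, the mouse counterpart of the human Prader-Willi and Angelman region, holds *Snrpn*, which codes for the spliceosomal protein SmN, and the paternally expressed *Ndn*, *Magel2* and *Mkrn3*. *Snrpn* shared its assembled locus, chr7:59922520-60870679 on the minus strand, with *Snurf*, *Snord64* and *D7Ertd715e*. *Snrpn* as annotated by GENCODE covers only 59982495 to 60140219, so the values given for *Snrpn* are those of this wider locus. The locus had 1456, 1507 and 1479 CPM in libraries labelled cKO and 1421, 1403 and 1454 CPM in libraries labelled control. The lowest library labelled cKO was thus just above the highest labelled control (log2 fold change 0.054, SE 0.039, adjusted p = 0.874 in edgeR).

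*Ndn*, which codes for a MAGE family protein of postmitotic neurons, had 276.1, 275.1 and 257.4 CPM in libraries labelled cKO and 255.2, 243.8 and 253.5 CPM in libraries labelled control. The groups did not overlap, but the gap between them was 257.4 against 255.2 CPM. Its log2 fold change was 0.10 (SE 0.046), with an unadjusted p of 0.0366 and an adjusted p of 0.662 in edgeR. Its relative *Magel2* was far less abundant, at 2.26 FPKM against 179.7 FPKM for *Ndn*, and had a log2 fold change of 0.026 (SE 0.111). *Mkrn3*, a RING finger gene, had 46, 43 and 47 fragments in libraries labelled cKO and 45, 53 and 47 in libraries labelled control.

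The name *Ube3a* stood at 3 loci, and the locus with the most fragments lay antisense to the gene. The sense locus, chr7:59228640-59307997 on the plus strand, had 49.1, 51.1 and 52.4 FPKM in libraries labelled cKO and 49.8, 49.8 and 51.4 FPKM in libraries labelled control. Its log2 fold change was 0.032 (SE 0.042, 95% interval -0.057 to 0.12, adjusted p = 0.942 in edgeR), and the groups overlapped. The antisense locus that the fragment count selects, chr7:59229256-59272018 on the minus strand, had 591.8, 628.0 and 619.9 CPM in libraries labelled cKO and 565.8, 578.5 and 613.8 CPM in libraries labelled control (log2 fold change 0.065, SE 0.045). In FPKM the antisense locus was 0.2673, 0.2923 and 0.2799 of the sense locus in libraries labelled cKO and 0.266, 0.2675 and 0.2797 in libraries labelled control.

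A second antisense locus lay next to it, at chr7:59210808-59228813. It had 144.2, 175.9 and 173.0 CPM in libraries labelled cKO and 138.2, 146.9 and 156.3 CPM in libraries labelled control. Replicate 1 of the libraries labelled cKO lay among the controls and the other 2 lay above them. Its log2 fold change was 0.16 (SE 0.067, adjusted p = 0.638 in edgeR). Without that library it was 0.24 and passed (adjusted p = 0.0344), and without control replicate 3 as well it was 0.29 (adjusted p = 0.0117). Both antisense loci were single exons within the known path of the long transcript that runs from *Snrpn* through *Ube3a*.

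The minus strand of this region was assembled in many pieces. From the far end of the *Ube3a* antisense stretch to the *Snrpn* locus there were 22 minus-strand loci, which summed to 2397, 2593 and 2559 CPM in libraries labelled cKO and 2471, 2450 and 2577 CPM in libraries labelled control. The 12 of them that were tested had a median log2 fold change of 0.016 and 0 passed. On the other side, between *Snrpn* and *Ndn*, stood 89 minus-strand loci, 79 of them unnamed. The unnamed ones summed to 407.1, 428.4 and 458.2 CPM in libraries labelled cKO and 343.9, 381.9 and 409.7 CPM in libraries labelled control. The highest library labelled control lay above the lowest labelled cKO, so the sums overlapped. Of the 64 that were tested, 51 (79.7%) had a log2 fold change above 0, against 51.4% of all loci. Their median was 0.18, against 0.0034 over all loci, and 0 passed in edgeR, against 0.531%. At an unadjusted p under 0.05 in edgeR, 7 were higher, against 2.91% of all loci, and 0 lower, against 4.03%. Without the libraries labelled control replicate 3 and cKO replicate 1 the median was 0.24 and 1 of these loci was called higher. The 10 named loci there, which include *A330076H08Rik* and hosts of miR-344, summed to 641.6, 698.0 and 709.5 CPM in libraries labelled cKO and 715.9, 674.9 and 696.6 CPM in libraries labelled control. Neighbouring pieces can belong to 1 transcript, and this set was chosen after its values were seen, so the counts are a description.

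**Figure D4:**
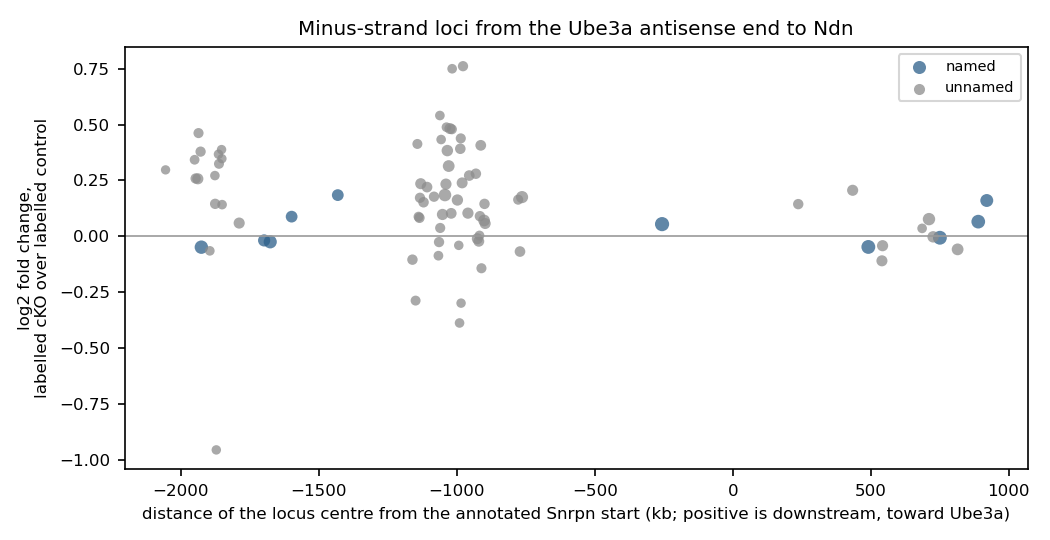
Log2 fold change of each tested minus-strand locus between the end of the *Ube3a* antisense stretch and *Ndn*, against the distance of its centre from the annotated *Snrpn* start in kilobases, with *Ube3a* to the right and *Ndn* to the left. Larger points had more fragments, blue points carry a gene name and grey points do not. The grey points left of *Snrpn* lie mostly above 0 (median 0.18) and those right of it on both sides of 0.

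*Airn* gave the lowest fold change of the members with all 6 libraries. It is a paternally expressed noncoding RNA that starts inside *Igf2r* and runs antisense to it. *Igf2r* codes for the receptor that clears insulin-like growth factor 2 and mannose 6-phosphate proteins, and is maternally expressed outside neurons and from both copies in neurons. *Airn*, at chr17:12741311-12860521 on the plus strand, had 98, 112 and 107 fragments in libraries labelled cKO and 146, 143 and 113 in libraries labelled control. In CPM these were 8.18, 8.59 and 8.45 for libraries labelled cKO and 11.96, 11.65 and 8.54 for libraries labelled control. Replicate 3 of the libraries labelled control was at the level of the libraries labelled cKO. The log2 fold change was -0.34 (SE 0.135), with an unadjusted p of 0.0208 and an adjusted p of 0.587 in edgeR. Over the alternatives its adjusted p lay between 0.142 and 1.0. In FPKM, which Cuffdiff estimates over several isoforms, *Airn* had 3.66, 2.59 and 3.98 in libraries labelled cKO and 3.94, 4.81 and 3.69 in libraries labelled control.

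Beside *Airn*, 5 further loci on the plus strand within its span were named *Igf2r*, although *Igf2r* lies on the minus strand. All lay between positions 12742060 and 12769321 of chromosome 17. The most abundant, chr17:12756704-12769321, had 154, 197 and 239 fragments in libraries labelled cKO and 268, 268 and 259 in libraries labelled control. Its libraries labelled cKO were all below its controls, with replicate 3 the nearest. The log2 fold change was -0.43 (SE 0.116), with an unadjusted p of 0.00171 and an adjusted p of 0.166 in edgeR. The adjusted p was 0.0389 with no filter on low counts and 0.0264 without the library labelled cKO replicate 3, and over all alternatives it reached 0.865.

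The piece at chr17:12742060-12746706 had a log2 fold change of -0.46 (SE 0.141, adjusted p = 0.297 in edgeR) and the one at chr17:12750398-12756610 of -0.32 (SE 0.128, adjusted p = 0.614). In both, as in the most abundant piece, all libraries labelled cKO were below all controls. The remaining 2 pieces had between 4 and 38 fragments in a library, and their groups overlapped. Together the 5 pieces held 349, 424 and 418 fragments in libraries labelled cKO and 547, 537 and 505 in libraries labelled control. In CPM this was 31.6 ± 2.1 CPM in libraries labelled cKO and 42.2 ± 3.6 CPM in libraries labelled control (SD, n = 3 each). The sum was formed after these values were seen and is given with no test.

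*Igf2r* itself had 95.4, 95.5 and 90.0 CPM in libraries labelled cKO and 98.9, 95.9 and 97.4 CPM in libraries labelled control. All libraries labelled cKO were lower, by a log2 fold change of -0.056 (SE 0.050, adjusted p = 0.902 in edgeR), and the gap between the groups was 95.5 against 95.9 CPM. In FPKM, *Airn* was 0.364 ± 0.087 of *Igf2r* in libraries labelled cKO and 0.423 ± 0.063 in libraries labelled control (SD, n = 3 each).

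**Figure D5:**
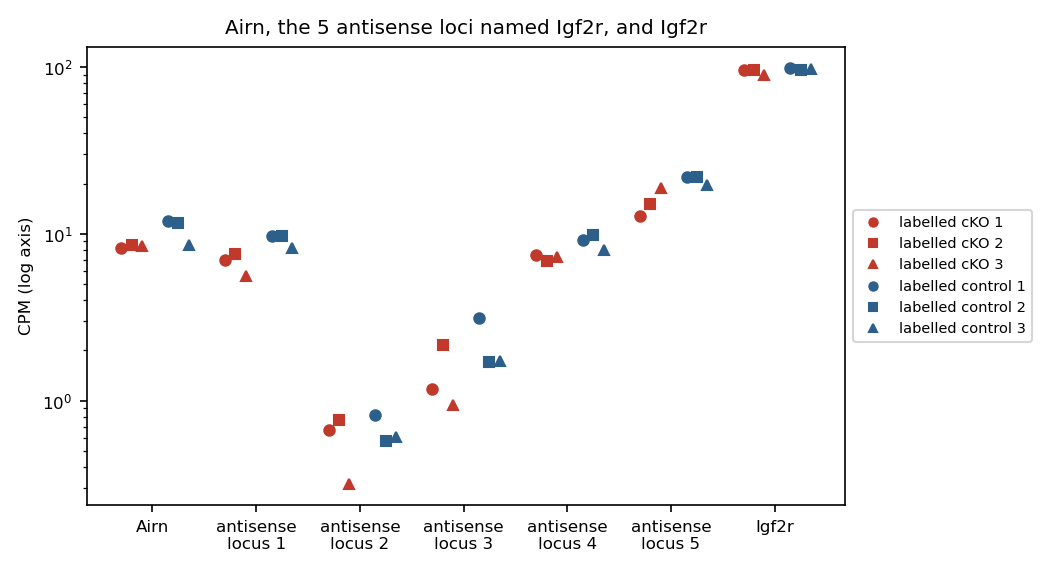
CPM in each library, on a log axis, of *Airn*, of the 5 plus-strand pieces named *Igf2r* in order of position, and of *Igf2r* itself. Red symbols (labelled cKO) stand left of blue symbols (labelled control). In pieces 1, 4 and 5 every red symbol is below every blue symbol, in *Airn* and pieces 2 and 3 they overlap, and in *Igf2r* they differ by little.

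The growth-related clusters of distal chromosome 7 were expressed at low to moderate levels. *Igf2*, the insulin-like growth factor known in brain mainly from choroid plexus and meninges, had 95.2, 94.5 and 80.1 CPM in libraries labelled cKO and 75.1, 91.5 and 79.3 CPM in libraries labelled control. Its log2 fold change was 0.13 (SE 0.075, adjusted p = 0.802 in edgeR), and control replicate 2 lay above cKO replicate 3. The library labelled control replicate 2 also had the highest sum of meningeal markers, 434.6 CPM, but without *Col1a1* and *Col1a2* its sum was 194.8 CPM, against 198.3 CPM in the library labelled cKO replicate 1. The part of these cells in the *Igf2* values was not tested. *H19*, a maternally expressed noncoding RNA that hosts miR-675, had 30, 17 and 24 fragments in libraries labelled cKO and 21, 22 and 27 in libraries labelled control. Its 95% interval, -0.56 to 0.61 on the log2 scale, was the widest of the members, so its fold change was the least precisely estimated.

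*Cdkn1c*, an inhibitor of cyclin-dependent kinases, varied most between libraries of 1 genotype among the members above 5 FPKM. It had 20.12, 13.58 and 13.98 CPM in libraries labelled cKO and 14.9, 17.1 and 11.8 CPM in libraries labelled control, with a log2 fold change of 0.12 (SE 0.150). Without the library labelled cKO replicate 1 this value was -0.080. *Kcnq1ot1*, the paternally expressed noncoding RNA of the same cluster, had 677.1, 711.4 and 743.8 CPM in libraries labelled cKO and 704.7, 712.5 and 734.6 CPM in libraries labelled control (log2 fold change -0.013, SE 0.044). *Phlda2*, a growth-restraining gene of placenta, had 0 fragments in all 6 libraries. A count of 0 allows up to 3 fragments, or 0.227 to 0.25 CPM depending on the library, a limit that covers counting error only.

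The neuronatin locus *Nnat*, a paternally expressed gene for a small proteolipid of neurons, had 117.9, 143.7 and 119.2 CPM in libraries labelled cKO and 127.6, 109.7 and 120.2 CPM in libraries labelled control. *Blcap*, whose intron holds *Nnat* and which is maternally expressed in brain, had 67.3, 75.6 and 65.1 CPM in libraries labelled cKO and 69.2, 63.0 and 66.3 CPM in libraries labelled control. Both genes were highest in the library labelled cKO replicate 2 and lowest in the library labelled control replicate 2. Their log2 fold changes were 0.092 (SE 0.072) and 0.068 (SE 0.064), and *Blcap* stayed at 0.35 to 0.38 of *Nnat* in FPKM in all 6 libraries.

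On chromosome 6, *Peg10*, a paternally expressed gene derived from a retrotransposon, had a log2 fold change of 0.034 (SE 0.062). *Sgce*, which codes for epsilon-sarcoglycan and shares its start region, had one of -0.073 (SE 0.086). The maternally expressed *Asb4* had 28 to 39 fragments in libraries labelled cKO and 34 to 40 in libraries labelled control. *Mest*, a paternally expressed gene of the hydrolase fold that hosts miR-335, had 180.0, 190.0 and 220.8 CPM in libraries labelled cKO and 172.0, 188.0 and 184.8 CPM in libraries labelled control, with a log2 fold change of 0.12 (SE 0.064, adjusted p = 0.795 in edgeR). *Copg2*, a coatomer subunit gene that overlaps the end of *Mest* on the other strand, had a log2 fold change of 0.022 (SE 0.055).

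The 8 members that stand alone in their cluster here had log2 fold changes between 0.034 and 0.15. In edgeR 0 of them passed, against 0.531% of all loci. At an unadjusted p under 0.05 in edgeR, 0 were lower, against 4.03% of all loci, and 0 higher, against 2.91%. A count of 0 among 8 genes is near these shares. *Gnas* had 1367, 1361 and 1389 CPM in libraries labelled cKO and 1268, 1305 and 1343 CPM in libraries labelled control, a log2 fold change of 0.072 (SE 0.040, adjusted p = 0.797 in edgeR). *Grb10*, an adaptor of growth factor receptors that is maternally expressed outside neurons and paternally in neurons, had 126.1, 135.5 and 128.9 CPM in libraries labelled cKO and 118.5, 124.0 and 124.8 CPM in libraries labelled control (log2 fold change 0.089, SE 0.050). *Trappc9*, a trafficking protein gene with maternal bias in brain, was the steadiest, at 115.4, 115.2 and 114.0 CPM in libraries labelled cKO and 112.5, 109.5 and 112.2 CPM in libraries labelled control (log2 fold change 0.044, SE 0.047). *Impact*, which restrains the kinase GCN2, had a log2 fold change of 0.085 (SE 0.047), and the zinc finger transcription factor *Plagl1* one of 0.15 (SE 0.096). *Zdbf2*, *Zrsr1* and *Inpp5f* had log2 fold changes of 0.076, 0.036 and 0.034.

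Beyond the members, 43 loci of other imprinted genes were examined, of which 35 were tested and 0 passed in edgeR. At an unadjusted p under 0.05, 2 were lower, against 4.03% of all loci, and 1 was higher, against 2.91% of all loci, and the median log2 fold change was 0.013. The higher one was *Nap1l5*, a paternally expressed retrogene, with 616.9, 664.6 and 659.1 CPM in libraries labelled cKO and 591.6, 583.2 and 556.3 CPM in libraries labelled control. Its groups did not overlap (log2 fold change 0.16, SE 0.045, adjusted p = 0.169), and without the library labelled cKO replicate 1 it passed, at 0.20 (adjusted p = 0.0231). The 2 lower ones were near the limit of detection. *Nespas*, the antisense RNA of the *Gnas* cluster, had 1.00, 0.998 and 1.42 CPM in libraries labelled cKO and 1.802, 2.199 and 1.662 CPM in libraries labelled control (log2 fold change -0.72, SE 0.292, adjusted p = 0.614). The locus named *Kcnq1* with the most fragments lay antisense to *Kcnq1* and had a log2 fold change of -0.88 (SE 0.361, adjusted p = 0.629). *Begain*, a neighbour of *Dlk1* that codes for a synapse-associated protein, was the next by p, at 0.12 (SE 0.062, adjusted p = 0.776).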

How the data were processed

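Strand-specific, ribosomal RNA-depleted libraries were sequenced as paired ends on a NextSeq 500. Per the labels, the authors used CASAVA 1.6, TopHat2 2.0.9, Cufflinks 2.2.0 and Cuffdiff on mm10. The authors' deposited table gives raw fragment counts per assembled locus, not normalized, and FPKM values scaled by Cuffdiff, per library. The authors' merged transcript annotation gave each locus its name, strand and position. The 2 further per-sample value columns were not used. How the counting treated strand is not given in the sources used here, so sense and antisense values at overlapping genes are uncertain.

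Counts were tested with edgeR 4.0.16 (quasi-likelihood, TMM scaling, its default filter on low counts, Benjamini-Hochberg adjustment over 21854 loci, threshold 0.05) in R 4.3.3. All 6 libraries entered, 3 per genotype. CPM uses the TMM-scaled library sizes. The standard error is the log2 fold change divided by the square root of the F statistic. The tests were checked on simulated counts with the same spread at every locus and changes of 1.5-fold or more. The members' fold changes were smaller, so this check does not cover changes of their size. Alternatives were DESeq2 1.42.0, other scalings and count filters, limma 3.58.1 on log2(FPKM + 1) and log2(FPKM + 0.1) with a minimum of 1 FPKM in 3 libraries, leaving out libraries, and the replicate number as a block. The replicate numbers name libraries only: deviations of libraries with the same number correlated at 0.032, -0.082 and 0.050. Libraries of a genotype differed by more than counting noise, with a chi-square per degree of freedom of 2.13 to 8.32, so each counts as 1 replicate. P-values measure the spread between pools.

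Members, gene lists and tests were chosen with earlier results of these data known. All members are named, with *Hoxa5*, and of the other imprinted and imprint maintenance genes those that passed and up to 4 with the smallest p. Other names were chosen for their position or after their values were seen.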

Additional observations from a re-analysis of the deposited data

How the results depend on the processing

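In all 16 alternatives 0 members passed the threshold, and the lowest adjusted p of a member was 0.128, in edgeR. With limma on log2(FPKM + 1) 0 of all loci passed, so no member could be called there. Over all loci 0.592% passed in DESeq2, and 0.726% in edgeR without control replicate 3 and cKO replicate 1. A count of 0 among 33 genes is near these shares. The direction of 18 of the 33 tested members was the same in every alternative. With limma it turned for *Usp29*, to -0.0168 with FPKM + 1, filtered or not, and to -0.0175 with FPKM + 0.1, and for *Copg2*, to -0.0055 and -0.0057. With 1 library left out in turn, or with the libraries labelled control replicate 3 and cKO replicate 1 left out together, the log2 fold change crossed 0 for *Meg3* (-0.052 to 0.16), *Rian* (-0.045 to 0.020), *Mirg* (-0.080 to 0.022), *Magel2* (-0.021 to 0.13), *H19* (-0.22 to 0.25), *Cdkn1c* (-0.22 to 0.25), *Kcnq1ot1* (-0.047 to 0.038), *Nnat* (-0.0032 to 0.15), *Peg10* (-0.0063 to 0.14), *Asb4* (-0.21 to 0.096), *Copg2* (-0.0087 to 0.070), *Inpp5f* (-0.028 to 0.076), *Zrsr1* (-0.00091 to 0.11) and *Zdbf2* (-0.0037 to 0.13), and for a small minus-strand locus named *Airn* (-0.44 to 0.37). With those 2 libraries left out together, it was 0.020 for *Rian*, 0.022 for *Mirg*, -0.14 for *H19*, -0.22 for *Cdkn1c*, 0.038 for *Kcnq1ot1*, -0.0087 for *Copg2* and -0.028 for *Inpp5f*. The cause was not tested.

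Over all loci, 110 were called lower and 6 higher in edgeR. With no filter these were 194 and 27, with at least 50 fragments in 3 libraries 1 was higher, with limma on log2(FPKM + 1) 0 and 0 with or without its filter, and on log2(FPKM + 0.1) 1 and 0. With 1 library left out, 42 to 126 were lower and 0 to 15 higher, with both libraries named above left out 140 were lower and 21 higher, and 0 to 1 other imprinted genes were higher. With the replicate number as a block 122 loci were lower and 8 higher, and 0 members were called. Not every library correlated best with its own number.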

Other observations

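The machinery that keeps imprints, which the comparisons above do not cover, was examined as a list of 24 genes, of which 21 were tested and 0 passed in edgeR. At an unadjusted p under 0.05, 1 was lower, against 4.03% of all loci, and 0 were higher, against 2.91%. The lower one was *Ctcf*, the insulator protein that binds the unmethylated *H19* control region, with 48.3, 47.5 and 51.4 CPM in libraries labelled cKO and 54.5, 53.8 and 52.4 CPM in libraries labelled control (log2 fold change -0.13, SE 0.059, adjusted p = 0.712). Of the 21 tested genes, 17 had a log2 fold change below 0 and 4 (19%) one above 0, against 51.4% of all loci above 0. Their median was -0.062, against 0.0034 over all loci. The next by p were *Arid4a* at -0.13, *Dnmt3a*, a methyltransferase that sets new methylation, at -0.079, and *Tet1*, which oxidises methylcytosine, at -0.094. *Zfp57*, whose letters were searched in the promoters above, was present at 4.35 FPKM and its partner *Trim28* at 36.9 FPKM. *Dppa3*, known from egg and early embryo, had 0 fragments in all 6 libraries.

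The spans of the 17 clusters held 286 loci in all, 187 of them unnamed. Each span ran between the outer ends of the chosen loci. The sense locus of *Ube3a* and the second antisense locus there therefore fell outside and are not in these counts. That second antisense locus was higher at an unadjusted p of 0.0296 in edgeR. Of the 189 that were tested, 139 lay in the *Snrpn-Ube3a* span and 8 in the *Igf2r-Airn* span. In edgeR 0 passed, against 0.531% of all loci. At an unadjusted p under 0.05 in edgeR, 4 were lower, against 4.03% of all loci, all in the *Igf2r-Airn* span. Likewise 12 were higher, against 2.91% of all loci, 11 of them in the *Snrpn-Ube3a* span, which holds most of the tested loci. Neighbouring pieces can belong to 1 transcript, so these counts are a description.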
